A study of Mus musculus with 6 samples.

Results

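AP-1 and immediate early genes were followed here as 10 genes taken by symbol from the count table. They are the Fos family genes Fos and Fosb, the Jun family genes Jun, Junb and Jund, and 5 genes of rapid induction or feedback, namely Ier2, Dusp1, Zfp36, Socs3 and Nfkbia. They make up 10 of the 34573 genes in the table, and all 10 were among the 13729 genes that passed the filter on low counts. The cells were double negative 3 (DN3) thymocytes, immature T cells of adult thymus without CD4, CD8 or CD44 and with CD25. The mice were 6 to 8 weeks old, of mixed C57BL/6 and 129 strain, and all carried floxed Rpl22l1 (Rpl22l1 f/f), the gene of a paralog of the ribosomal protein Rpl22. The 3 WT libraries came from cells without Cre recombinase and the 3 L1 KO libraries (KO from here on) from cells with Cre. Cells were not cultured and went straight into Trizol. The series text names Vav-Cre, whose promoter is active in blood-forming cells at large, so the deletion is not limited to the DN3 stage. Because no WT library carried Cre, the effect of Cre itself and that of the deletion cannot be told apart. That text also links Cre and genotype in the opposite way to the sample labels. The sample labels were followed, and Rpl22l1 stood at 86.3, 123 and 118 CPM (read counts scaled to a common library size) in WT 1, 2 and 3 and at 18.6, 19.996 and 26.1 CPM in KO 1, 2 and 3.

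Immediate early genes are transcribed within minutes of a signal, without new protein synthesis, when MAP kinases act on factors already bound to their promoters, such as SRF with its ternary complex partners and CREB. Fos proteins pair with Jun proteins to form AP-1, a transcription factor that carries receptor signals to other genes. The same signals also induce their own brakes: Dusp1 removes phosphate from MAP kinases, Zfp36 binds AU-rich mRNAs and speeds their decay, Socs3 restrains cytokine receptors that act through STAT3, and Nfkbia holds NF-kappa-B in the cytoplasm. In thymocytes these genes respond to pre-T cell receptor and T cell receptor signals, and in many tissues to stress and handling.

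Reads counted to genes ranged from 13887672 in KO 3 to 28128186 in KO 2. Levels below are CPM scaled by the TMM method. The 12 marker genes of DN3 cells summed to 8660 to 9518 CPM in the 6 libraries. The libraries numbered 1 in both groups stood apart from the other 4, so results are also given with the library number as a block and with both number 1 libraries left out. The labels do not say whether the libraries are from different mice, and p-values therefore cover the spread among these 6 libraries, which can be technical.

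Promoter windows are shown for Fos, Fosb, Jun and Dusp1, whose libraries ranked in the same order within each group, and for Socs3, the gene that differed between the groups. The sequences are RefSeq windows on GRCm38.p6, from 250 bases before to 50 bases after the annotated start, written 5′ to 3′ on the strand of the gene. They lie at chr12:85473640-85473939 (plus strand) for Fos, chr7:19309996-19310295 (minus strand) for Fosb, chr4:95052173-95052472 (minus strand) for Jun, chr17:26508423-26508722 (minus strand) for Dusp1 and chr11:117969317-117969616 (minus strand) for Socs3. Capitals mark matches to the core of the cAMP response element (CRE; TGACG), the full CRE (TGACGTCA), the STAT site (TTCNNNGAA) and the NF-kappa-B site, all on both strands, and the TATA box (TATAAA) on the gene's strand, and the Jun window holds none of these.
Fos promoter: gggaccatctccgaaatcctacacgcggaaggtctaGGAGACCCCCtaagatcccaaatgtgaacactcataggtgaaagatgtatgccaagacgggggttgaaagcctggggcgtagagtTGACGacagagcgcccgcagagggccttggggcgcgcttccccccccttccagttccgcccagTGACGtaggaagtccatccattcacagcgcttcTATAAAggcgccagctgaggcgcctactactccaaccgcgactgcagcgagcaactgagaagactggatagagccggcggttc
Fosb promoter: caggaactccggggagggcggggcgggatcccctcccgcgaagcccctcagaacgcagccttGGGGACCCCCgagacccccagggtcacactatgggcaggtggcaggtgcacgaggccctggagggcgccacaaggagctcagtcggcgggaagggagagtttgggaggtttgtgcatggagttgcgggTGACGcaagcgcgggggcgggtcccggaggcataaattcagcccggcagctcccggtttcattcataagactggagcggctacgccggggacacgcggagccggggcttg
Jun promoter: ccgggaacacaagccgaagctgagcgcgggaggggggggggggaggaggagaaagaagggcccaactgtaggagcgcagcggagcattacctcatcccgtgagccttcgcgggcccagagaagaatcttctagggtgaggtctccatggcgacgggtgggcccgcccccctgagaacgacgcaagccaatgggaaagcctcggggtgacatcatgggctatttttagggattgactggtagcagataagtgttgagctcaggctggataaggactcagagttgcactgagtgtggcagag
Dusp1 promoter: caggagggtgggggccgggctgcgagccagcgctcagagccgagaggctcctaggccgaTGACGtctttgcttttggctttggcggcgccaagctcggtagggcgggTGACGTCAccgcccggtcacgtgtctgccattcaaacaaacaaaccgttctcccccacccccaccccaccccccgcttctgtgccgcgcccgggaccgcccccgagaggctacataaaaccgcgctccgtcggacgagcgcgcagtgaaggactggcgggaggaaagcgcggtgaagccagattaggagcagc
Socs3 promoter: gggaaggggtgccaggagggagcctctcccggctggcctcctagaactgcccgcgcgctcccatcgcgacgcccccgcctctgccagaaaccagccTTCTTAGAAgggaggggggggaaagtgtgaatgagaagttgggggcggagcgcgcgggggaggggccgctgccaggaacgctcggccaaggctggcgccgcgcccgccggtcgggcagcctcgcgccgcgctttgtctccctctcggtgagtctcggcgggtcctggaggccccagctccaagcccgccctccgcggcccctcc

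A window was found for 9 of the 10 genes, and Ier2 is named only. The CRE core, the letters bound by CREB and related factors, was present in Fos, Fosb, Junb and Dusp1. In the Fos window it started 129 and 66 bases before the annotated start, and in the Fosb window 60 bases before it. Dusp1 held the core 3 times, and 2 of these overlapped as the full CRE that starts 143 bases before its start. Of all 32851 windows 20.8% held the core, and 30.8% of the windows of tested genes did. The STAT site was present in Socs3, 154 bases before its start, and in Zfp36, against 8.30% of all windows. None of the 9 windows held the AP-1 site TGANTCA, which 7.81% of all windows held. Zfp36 alone among them held the CArG box, the SRF binding motif, against 1.63% of all windows. A match here is a run of letters and not evidence of binding, and a window without one says nothing of the factor.

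The 3′ UTRs carry the other element known for this class, the AU-rich pentamer ATTTA, to which Zfp36 protein and its relatives bind. The stretches below are 30 bases of the GRCm38 genome from GENCODE transcripts, in T for U, with each pentamer in capitals. They are shown for Fos, Dusp1 and Socs3, with 4 pentamers each in the UTR, and for Zfp36 with 3. Jun also had 4 and is not shown. They lie at chr12:85477100-85477129 (plus strand) for Fos, chr17:26506157-26506186 (minus strand) for Dusp1, chr7:28376958-28376987 (minus strand) for Zfp36 and chr11:117966136-117966165 (minus strand) for Socs3.
Fos 3′ UTR site: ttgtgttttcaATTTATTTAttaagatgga
Dusp1 3′ UTR site: agctggtccttATTTATTTAacacccccct
Zfp36 3′ UTR site: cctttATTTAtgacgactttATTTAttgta
Socs3 3′ UTR site: ttgcacatatATTTAtATTTAtactcagaa

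Fos, Jun, Dusp1 and Socs3 had 4 pentamers each in their 3′ UTR and Zfp36 had 3. Junb and Nfkbia had 2, Fosb and Jund had 1, and Ier2 had 0, against a median of 1 over 10628 tested genes with a 3′ UTR of at least 50 bases. Per kb of UTR, Dusp1 and Fos were densest, with 5.80 and 4.91 pentamers, above 95.2% and 93.1% of these genes. Fosb, whose UTR of 2145 bases was the longest of the 10, had 0.466 per kb. The longer nonamer TTATTTATT occurred in Fos, Dusp1, Zfp36 and Nfkbia, 4 of 10 genes, against 7.29% of the 10628. The genes are also compact: 8 of the 10 spanned under 5 kb in GENCODE, against 16.1% of the tested genes that could be matched by symbol.

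Between KO and WT, the 10 genes did not move as a block. Socs3 was lower in KO and was the 1 member past the threshold in the edgeR fit on group alone (Benjamini-Hochberg adjusted p under 0.05 over all tested genes). In that fit 628 of 13729 genes, or 4.57%, were called in either direction, 2.43% as lower in KO and 2.14% as higher. Of the members, 0 were called higher, and DESeq2 and limma-voom also called 0 higher, while 2 had an unadjusted p under 0.05 on the higher side in edgeR. The log2 fold change was above 0 for 8 of the 10, with a median of 0.54, against 48.8% above 0 and a median of −0.01 over all tested genes. With the replicate block edgeR called 3 members, Fosb and Zfp36 higher and Socs3 lower, where 20.3% of tested genes were called. Without both number 1 libraries it called the same 3 members, where 21.0% of 13692 genes were called. In bulk RNA, fewer cells with a transcript and less of it per cell cannot be told apart.

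**Figure D1:**
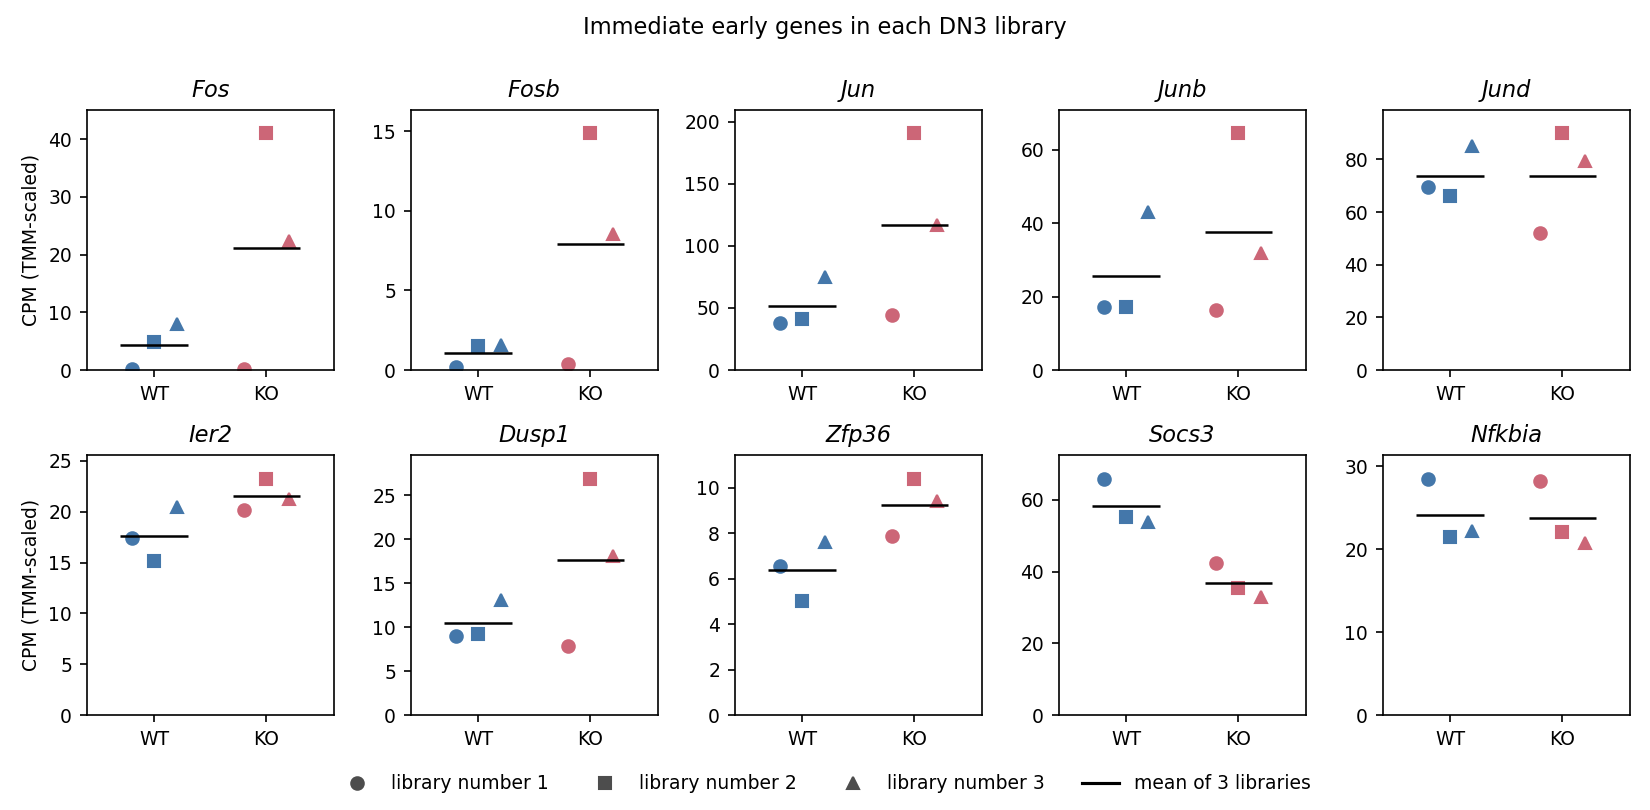
Level of each of the 10 genes in CPM (TMM-scaled, linear axes from 0) in the 3 WT and 3 KO libraries; the marker shape gives the library number and the line the group mean. Fos and Fosb lie near 0 in both number 1 libraries and reach 41.0 and 14.9 CPM in KO 2, whereas all 3 KO values of Socs3 lie below all 3 WT values.

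Fos (chr12:85473890-85477273, plus strand, 4 exons), which encodes c-Fos, the classic partner of Jun in AP-1, had 0.227, 4.93 and 8.04 CPM in WT 1, 2 and 3. In KO 1, 2 and 3 it had 0.233, 41.0 and 22.4 CPM. Both number 1 libraries were thus near the detection limit, KO 2 and KO 3 stood above every WT library, and the groups overlapped through KO 1. The low values rest on 5 reads in WT 1 and 6 in KO 1, with exact 95% Poisson intervals of 0.0738 to 0.531 and 0.0857 to 0.508 CPM that cover counting error only. By contrast KO 2 had 1130 Fos reads. The highest library exceeded the lowest 180-fold.

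The mean of Fos was 21.2 ± 20.4 CPM in KO and 4.40 ± 3.93 CPM in WT (SD, n = 3). The fitted log2 fold change was 2.28 ± 1.75 (SE, adjusted p = 0.499 in edgeR), and the adjusted p lay between 0.098 and 0.838 over the 16 alternatives. The value rested in part on KO 2, without which it was 1.33, and on WT 3, without which it was 3.06, and limma-voom gave 1.38. Within the numbers, KO exceeded WT by 0.04, 3.06 and 1.48 log2 units in pairs 1, 2 and 3. With the replicate block the change was 2.19 ± 0.53 (adjusted p = 0.098), and without the number 1 libraries it was 2.32 ± 0.52 (adjusted p = 0.105). Fos was not called in any of these fits, and its SE was smaller in the latter 2.

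Fosb (chr7:19302696-19310051, minus strand, 5 exons), a close relative that pairs with the same Jun proteins, followed the same order of libraries at a lower level. It had 0.182, 1.51 and 1.58 CPM in WT 1, 2 and 3 and 0.350, 14.9 and 8.56 CPM in KO 1, 2 and 3. Again KO 2 and KO 3 exceeded every WT library and KO 1 lay among the WT values. The number 1 values rest on 4 reads in WT 1 and 9 in KO 1, with exact 95% Poisson intervals of 0.0496 to 0.466 and 0.160 to 0.665 CPM.

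Fosb had a log2 fold change of 2.87 ± 1.45 on group alone (adjusted p = 0.32 in edgeR). With the replicate block it was 2.77 ± 0.27 (adjusted p = 8.99e-05), and without the number 1 libraries 2.96 ± 0.30 (adjusted p = 0.000453). KO was higher in 3 of 3 same-numbered pairs, by 0.94, 3.30 and 2.44 log2 units. Without KO 2 alone it was 1.98, without KO 1 alone 3.46, and in limma-voom 2.08. Over all 15 alternatives that tested Fosb the adjusted p ranged from 1.92e-08 to 0.651, and 3 of them called it.

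**Figure D2:**
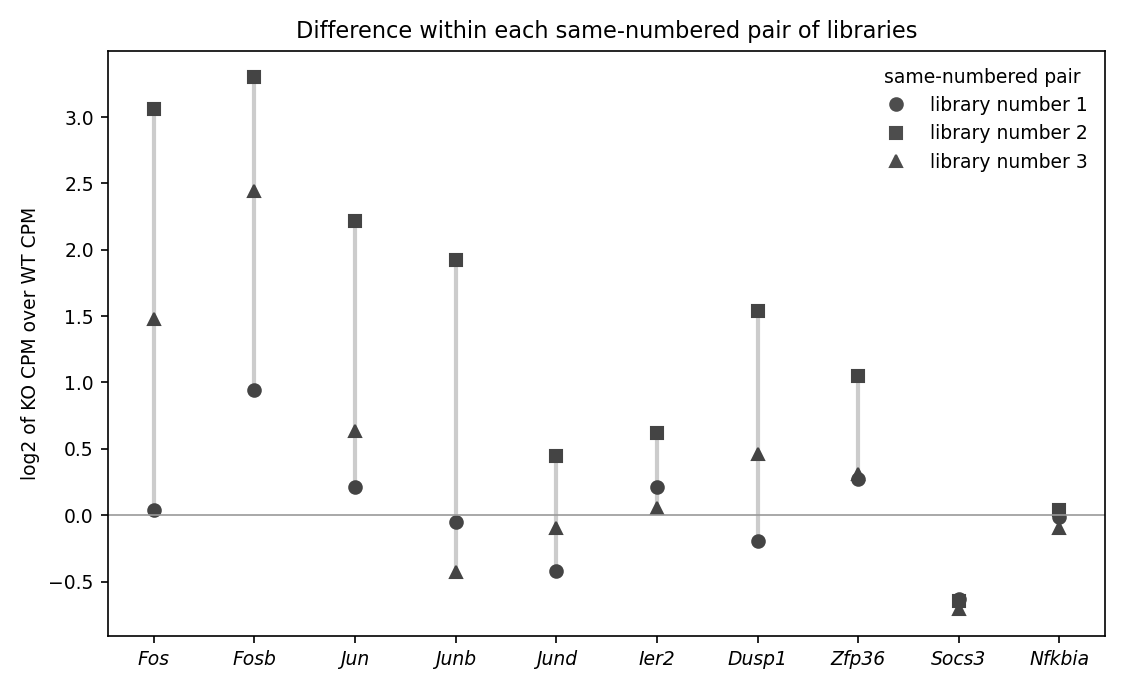
Log2 ratio of the KO to the WT level (vertical axis, log2 units) for each of the 10 genes within the same-numbered libraries 1, 2 and 3; the grey line spans the 3 values and the horizontal line marks no difference. Pair 2 gives the highest ratio of all 10 genes but Socs3, whose 3 ratios lie between −0.71 and −0.63.

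The Jun genes encode the partners that AP-1 cannot do without. Jun (chr4:95049034-95052222, minus strand, 1 exon), the founding member and a target of JNK kinases, had 37.97, 41.1 and 75.2 CPM in WT 1, 2 and 3 and 44.0, 191 and 117 CPM in KO 1, 2 and 3. KO 2 and KO 3 were above every WT library, and KO 1 lay between WT 2 and WT 3. Jun had a log2 fold change of 1.19 ± 0.65 (adjusted p = 0.359), 0.64 ± 0.62 without KO 2 (adjusted p = 0.708) and 1.42 ± 0.53 without the number 1 libraries (adjusted p = 0.246). Jun was called under none of the 16 alternatives, where its adjusted p ranged from 0.124 to 0.708. An antisense gene, Junos, shares 689 bases of the annotated Jun locus, and as the strand setting of the counting is not given, their reads cannot be told apart.

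Junb (chr8:84974484-84978718, minus strand), which can replace or oppose Jun in the dimer, had 17.05, 17.02 and 42.9 CPM in WT 1, 2 and 3. In KO 1, 2 and 3 it had 16.4, 64.4 and 31.8 CPM. Here 1 library in each group was high, WT 3 and KO 2, and the groups overlapped. The log2 fold change of 0.56 ± 0.70 (adjusted p = 0.685) rested on KO 2: without that library it was −0.10, and without WT 3 it was 1.15. Pairs 1 and 3 gave ratios of −0.05 and −0.43 log2 units and pair 2 gave 1.92. The protein-coding gene Prdx2, on the opposite strand, shares 351 bases of the annotated Junb locus.

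Jund (chr8:70698949-70700616, plus strand, 1 exon), the Jun gene known for steady expression in resting cells, had 69.7, 66.0 and 85.1 CPM in WT 1, 2 and 3 and 52.2, 89.9 and 79.5 CPM in KO 1, 2 and 3. The lowest and the highest library were both KO. Jund had a log2 fold change of 0.0048 ± 0.21 (adjusted p = 0.992), and it was −0.03 with libraries scaled by size only. The antisense gene Gm11175 shares 919 bases with Jund.

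Summed over the 5 Fos and Jun genes, AP-1 transcripts came to 125, 131 and 213 CPM in WT 1, 2 and 3 and to 113, 401 and 259 CPM in KO 1, 2 and 3. KO 1 was thus the lowest of the 6 libraries and KO 2 the highest. Jun and Jund made up most of this sum in every library, so that the sum hides the low Fos and Fosb of the number 1 libraries.

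Ier2 (chr8:84661331-84662852, minus strand, 1 exon) encodes a small nuclear protein and is induced alongside Fos. It did not share the spread of Fos: it had 17.4, 15.1 and 20.5 CPM in WT 1, 2 and 3 and 20.2, 23.3 and 21.2 CPM in KO 1, 2 and 3. The groups met only at WT 3, which was just above KO 1. Ier2 had a log2 fold change of 0.29 ± 0.12 (adjusted p = 0.192), with KO higher in 3 of 3 pairs, and no alternative called it (adjusted p from 0.079 to 0.495).

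Among the feedback genes, Dusp1 (chr17:26505590-26562128 in GENCODE, minus strand) came closest to the order seen for Fos. It had 8.96, 9.27 and 13.1 CPM in WT 1, 2 and 3 and 7.82, 26.9 and 18.1 CPM in KO 1, 2 and 3. KO 1 was the lowest of the 6 libraries, while KO 2 and KO 3 were the highest. On group alone the log2 fold change was 0.75 ± 0.47 (adjusted p = 0.399). Without KO 1 it was 1.13 and passed the threshold (adjusted p = 0.0214), the 1 alternative of 16 that called it. Without KO 2 it was 0.29 (adjusted p = 0.784), and without both number 1 libraries 1.03 ± 0.26 (adjusted p = 0.0513). The annotated Dusp1 locus shares 640 bases with Ergic1 and 956 with Gm8225 on the opposite strand. On the same strand it shares 1853 bases with AC122252.1 and 227 with AC122252.4.

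Zfp36 (chr7:28376784-28380253, minus strand, 2 exons), the gene of tristetraprolin, was higher in every KO library than in any WT library. It had 6.55, 5.02 and 7.63 CPM in WT 1, 2 and 3 and 7.90, 10.4 and 9.44 CPM in KO 1, 2 and 3. Such a gap between the groups was found for 2 members, Zfp36 and Socs3, and for 28.4% of tested genes. The log2 fold change of Zfp36 was 0.53 ± 0.18 and was not called on group alone (adjusted p = 0.117). It was called with the replicate block (0.54 ± 0.16, adjusted p = 0.0369), without the number 1 libraries (0.66 ± 0.19, adjusted p = 0.0313) and without KO 1 alone (0.64, adjusted p = 0.0386), but not in DESeq2 with the block (adjusted p = 0.115), and its adjusted p ranged up to 0.372 over the 16 alternatives. The antisense gene Gm44710 shares 1274 bases with Zfp36.

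**Figure D3:**
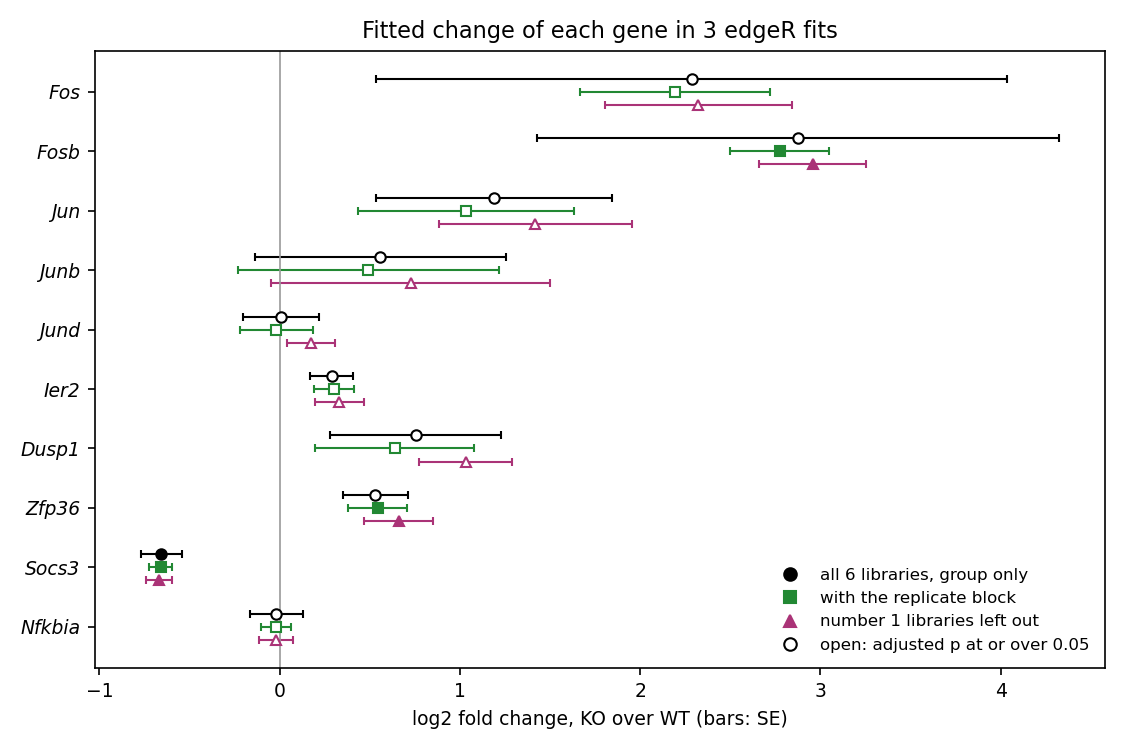
Fitted log2 fold change of KO over WT (horizontal axis, bars are SE) for the 10 genes in 3 edgeR fits: all 6 libraries by group, the same with the library number as a block, and the 4 libraries left without number 1. Filled markers have an adjusted p under 0.05; Socs3 is filled in all 3 fits, Fosb and Zfp36 in the latter 2, and the bars of Fos and Fosb shorten there.

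Socs3 (chr11:117966079-117970047, minus strand, 2 exons) went the other way and was steady within each group. It had 65.98, 55.3 and 53.8 CPM in WT 1, 2 and 3 and 42.6, 35.4 and 32.9 CPM in KO 1, 2 and 3. All KO libraries lay below all WT libraries, and the number 1 library was the highest of its group in both. The mean fell from 58.4 ± 6.65 CPM in WT to 36.96 ± 5.01 CPM in KO (SD, n = 3), 0.635 of the WT level.

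Socs3 had a log2 fold change of −0.66 ± 0.11 (adjusted p = 0.0181), and the same-numbered pairs gave −0.63, −0.64 and −0.71. With the replicate block it was −0.66 ± 0.06 (adjusted p = 4.18e-05). The call was lost when WT 2 (−0.69, adjusted p = 0.0757), KO 2 (−0.62, adjusted p = 0.0821) or KO 3 (−0.58, adjusted p = 0.0592) was left out, and held under the other 13 alternatives, down to an adjusted p of 7.9e-09. The direction was the same throughout.

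Several marker lists of other cells were also lower in KO, and their part in the Socs3 result was not tested. The 8 dendritic cell markers summed to 8.64 to 10.7 CPM in WT and 4.20 to 6.00 CPM in KO, with 2 of 4 tested genes called lower (Cd74 and H2-Eb1) and Xcr1 at 0 in every library. The 8 markers of progenitors before DN3 summed to 54.4 to 69.7 CPM in WT and 32.7 to 46.2 CPM in KO, with 2 of 6 tested genes lower (Kit and Bcl11a). Kit and Bcl11a made up most of that sum, while Cd44 and Lyl1 of the same list had log2 fold changes of 1.10 ± 0.40 and 1.16 ± 0.41 (adjusted p = 0.141 and 0.129). With the replicate block in edgeR Cd44 was called higher (adjusted p = 0.0116) and Lyl1 was not called (adjusted p = 0.0772). The 6 double positive thymocyte markers summed to 175 to 211 CPM in WT and 91.3 to 95.6 CPM in KO, with 2 of 6 lower (Ccr9 and Cd1d1), while the 6 B lineage markers summed to 30.5 to 33.0 and 23.7 to 27.1 CPM, with Ms4a1 and Pax5 at 0. The 8 myeloid markers, by contrast, summed to 24.3 to 30.2 CPM in WT and 24.7 to 31.5 CPM in KO.

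Nfkbia (chr12:55489410-55492647, minus strand, 6 exons), the gene of the inhibitor I-kappa-B alpha and itself a target of NF-kappa-B, was alike in both groups. It had 28.5, 21.5 and 22.2 CPM in WT 1, 2 and 3 and 28.2, 22.1 and 20.8 CPM in KO 1, 2 and 3. The same-numbered values differed by at most 0.09 log2 units, and the number 1 libraries were the highest in both groups, the reverse of Fos. The log2 fold change was −0.02 ± 0.15 (adjusted p = 0.954), and −0.02 ± 0.08 with the replicate block.

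The 10 genes differed widely in how far they varied within a group. The within-group SD of log2 CPM was 3.22 for Fos and 2.20 for Fosb, ranks 6 and 18 of 13729 tested genes. Junb (0.88), Jun (0.85) and Dusp1 (0.67) came next, and above at least 97.2% of genes. Jund (0.32), Zfp36 (0.26), Nfkbia (0.23), Socs3 (0.18) and Ier2 (0.17) were nearer to the median of 0.13, though all 10 exceeded it. From the highest to the lowest library the ratio ran from 180 for Fos and 81.8 for Fosb, through 5.02 for Jun, 3.92 for Junb and 3.44 for Dusp1, to 1.37 for Nfkbia.

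**Figure D4:**
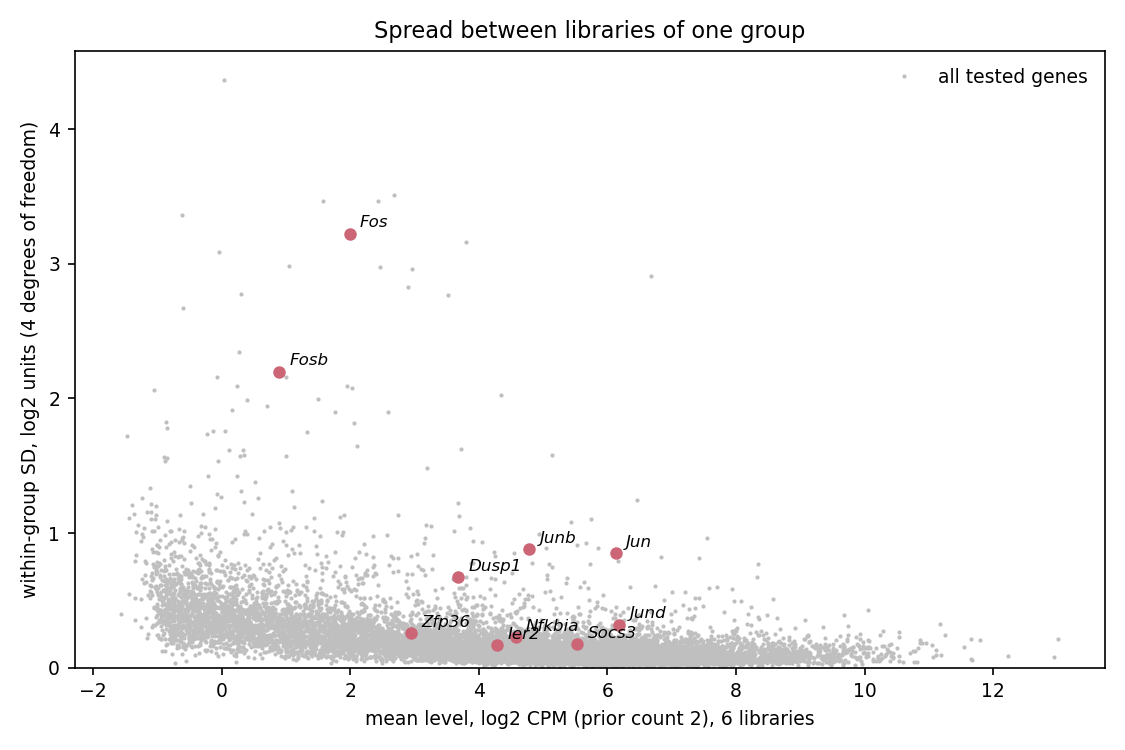
Within-group SD of log2 CPM (vertical axis, log2 units, 4 degrees of freedom) against mean log2 CPM over the 6 libraries (horizontal axis) for every tested gene in grey, with the 10 genes in colour. Fos and Fosb, at 3.22 and 2.20, lie far above genes of like level, and Ier2, Nfkbia and Socs3 lie among them.

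The order of the libraries was shared by most of the 10. Fos, Fosb, Jun, Junb, Jund, Ier2, Dusp1 and Zfp36 all had WT 3 as the highest WT library, KO 2 as the highest of all 6 and KO 1 as the lowest KO library. The within-group part of that order held for 7.71% of tested genes. Socs3 and Nfkbia had the number 1 library highest in both groups. Fos, Fosb, Jun and Dusp1 also had the number 1 library lowest in both groups, 4 of 10 members against 23.1% of tested genes. KO 2 was the deepest library and KO 1 the next, so the order of these genes was not the order of depth.

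Per kb of exon, so that genes can be ranked against each other, Jund was the most abundant in WT with 44.1 ± 6.07 CPM per kb (SD, n = 3). Socs3 (20.2 ± 2.30), Jun (16.1 ± 6.47), Nfkbia (14.9 ± 2.40), Ier2 (11.6 ± 1.76) and Junb (11.1 ± 6.49) followed, and each of these overlapped its neighbour in the range of the WT libraries. Dusp1 (3.16 ± 0.70), Fos (1.87 ± 1.67) and Zfp36 (1.84 ± 0.38) formed a lower and likewise overlapping set. Fosb was the least abundant, at 0.175 ± 0.126 CPM per kb. In KO the mean of Jun (36.8 ± 22.99 CPM per kb) came next to that of Jund (44.3 ± 11.7), and Fos (9.02 ± 8.68) passed Dusp1 (5.31 ± 2.88), with ranges that overlapped in both cases.

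Other genes of the pathways around AP-1 were read from 8 lists of 159 genes, of which 151 were tested. On group alone 7 of these, or 4.64%, were called, close to the 4.57% of all tested genes. Their median log2 fold change was −0.01. The replicate block called 33 of the 151, 18 higher and 15 lower, beside 20.3% of all tested genes in that fit.

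Of 18 tested AP-1 partners and related bZIP factors, 0 were called higher and 1 lower, Mafk, a small Maf protein that lacks an activation domain. Mafk had 98.4, 97.9 and 98.3 CPM in WT 1, 2 and 3 and 84.9, 77.2 and 73.7 CPM in KO 1, 2 and 3, a log2 fold change of −0.32 ± 0.07 (adjusted p = 0.0337). The call was lost without WT 1, WT 2, WT 3, KO 2 or KO 3, with adjusted p of 0.0693 to 0.163. DESeq2 and limma-voom also called 0 of them higher, and 1 had an unadjusted p under 0.05 on that side in edgeR. Jdp2, chosen after its values were seen, encodes a bZIP partner of Jun known as a repressor of AP-1. It reached 22.6 CPM in WT 1 and 20.7 CPM in KO 1, against 4.46 to 7.17 CPM in the other 4 libraries, so that the number 1 libraries were high in Jdp2 and low in Fos and Fosb. Batf, another Jun partner and also chosen after its values were seen, stayed between 5.76 and 7.24 CPM.

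Of 30 tested other immediate early genes 2 were called, both higher in KO. Klf2, a zinc finger factor of quiescent and emigrating T cells, had 0.909, 1.27 and 0.916 CPM in WT 1, 2 and 3 and 3.27, 3.96 and 3.58 CPM in KO 1, 2 and 3 (log2 fold change 1.80 ± 0.23, adjusted p = 0.00408), and all 15 alternatives that tested it called it. Klf6, a related factor, had 24.0 to 29.6 CPM in the WT libraries and 36.1 to 42.1 CPM in those of KO (0.52 ± 0.10, adjusted p = 0.0230), and lost the call without WT 2, WT 3, KO 2 or KO 3 (adjusted p 0.0517 to 0.113). Klf2 is also 1 of the 7 mature T cell markers, which summed to 669 to 750 CPM in WT and 766 to 925 CPM in KO with 2 of 6 tested genes higher; its part in these values was not tested. Neither Klf2 nor Klf6 had the wide spread of Fos, and in neither did KO 1 fall to the WT level. Klf4 and Ppp1r15a, chosen after their values were seen, had the Fos order of KO libraries: Klf4 had 0.389, 3.16 and 1.61 CPM and Ppp1r15a 14.5, 38.3 and 26.0 CPM in KO 1, 2 and 3. Their highest WT values were 0.610 and 17.96 CPM, both in WT 3. Klf4, with 6 to 12 reads in the WT libraries, was not called on group alone (2.03 ± 0.75, adjusted p = 0.166 in edgeR). It was called with the replicate block (1.91 ± 0.42, adjusted p = 0.00926). Ppp1r15a was called in neither fit (adjusted p = 0.278 and 0.426). Egr1, the SRF target most often read beside Fos, was also chosen after its values were seen and followed the Fos order in part. The WT order was that of Fos and KO 2 was the highest KO library. However, KO 3 rather than KO 1 was the lowest KO library, and WT 3 rather than KO 2 was the highest of all. It had 8.23, 11.7 and 20.5 CPM in WT 1, 2 and 3 and 12.6, 14.4 and 11.7 CPM in KO 1, 2 and 3 (log2 fold change −0.05 ± 0.32, adjusted p = 0.944).

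Of 22 tested genes of serum response and MAP kinase signalling 0 were called by edgeR, DESeq2 or limma-voom, and 4 had an unadjusted p under 0.05 in edgeR. With the replicate block 4 of the 22 were called, all lower, beside 20.3% of all tested genes. The smallest p values belonged to Elk1, a ternary complex factor that acts with SRF on the Fos promoter (log2 fold change −0.27 ± 0.07, adjusted p = 0.0746), and Rps6ka1, a kinase downstream of ERK (−0.22 ± 0.06, adjusted p = 0.0853). Both passed with the block in edgeR (adjusted p = 0.0358 and 0.0237) but not in DESeq2 (0.200 and 0.112).

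Of 11 tested dual-specificity phosphatases other than Dusp1, 2 rose and 0 fell. Dusp10, which acts on p38 and JNK as Dusp1 does, had 31.5, 23.4 and 25.2 CPM in WT 1, 2 and 3 and 47.0, 39.7 and 43.2 CPM in KO 1, 2 and 3 (log2 fold change 0.70 ± 0.12, adjusted p = 0.0161). Dusp22, an atypical member that restrains T cell receptor signals, had 2.24 to 2.73 CPM in the WT libraries and 4.32 to 5.33 CPM in those of KO (0.95 ± 0.18, adjusted p = 0.0212). Dusp10 lost the call without WT 2, WT 3 or KO 3 (adjusted p 0.0501 to 0.0830), and Dusp22 without WT 2, WT 3, KO 2 or KO 3 (0.0589 to 0.0888). On the lower side DESeq2 and limma-voom called 0 as well, and 0 had an unadjusted p under 0.05 in edgeR.

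Of 17 tested factors that bind AU-rich elements or decay mRNA, 1 was called, Tia1, a translational repressor, which was lower in KO (log2 fold change −0.31 ± 0.07, adjusted p = 0.0384) and lost the call without any single library but KO 1 (adjusted p 0.0790 to 0.167). The relatives of Zfp36 on this list, Zfp36l1 and Zfp36l2, had log2 fold changes of −0.27 ± 0.08 and −0.45 ± 0.16 on group alone (adjusted p = 0.0880 and 0.133), and both passed with the replicate block in edgeR (0.0157 and 0.0236), in the direction opposite to Zfp36. They are named after their values were seen.

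Of 20 tested NF-kappa-B pathway genes besides Nfkbia, 1 was called, Traf1, an adaptor of TNF receptors and an NF-kappa-B target. It had 15.4, 15.8 and 16.8 CPM in WT 1, 2 and 3 and 9.14, 10.4 and 8.12 CPM in KO 1, 2 and 3 (log2 fold change −0.79 ± 0.12, adjusted p = 0.00999), and lost the call without WT 2 (adjusted p = 0.0584). Of 20 tested SOCS and STAT3 pathway genes besides Socs3, 0 were called in edgeR and in limma-voom and 3 in DESeq2, with 6 at an unadjusted p under 0.05 in edgeR. Jak1, a kinase of cytokine receptors, had a log2 fold change of −0.21 ± 0.06 (adjusted p = 0.0941), and passed with the block (adjusted p = 0.0164).

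Heat shock chaperones, often induced beside Fos under stress, had a log2 fold change above 0 in all 13 tested genes, with a median of 0.20. In edgeR 0 of them were called and 4 had an unadjusted p under 0.05, and DESeq2 and limma-voom called 1 each. The replicate block called 5 of the 13, all higher, beside 20.3% of all tested genes, and without the number 1 libraries 2 were called higher and 1 lower, beside 21.0%. Hspe1 and Hsp90ab1 had the smallest p values (0.25 ± 0.08 and 0.24 ± 0.08, adjusted p = 0.0968 and 0.112) and passed with the block (0.0312 and 0.00500). Hspa1a, chosen after its values were seen, had 1.41, 2.19 and 9.82 CPM in WT 1, 2 and 3 and 7.63, 17.4 and 19.5 CPM in KO 1, 2 and 3, an order in which WT 3 was again the high WT library but KO 1 was not at the floor.

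**Figure D5:**
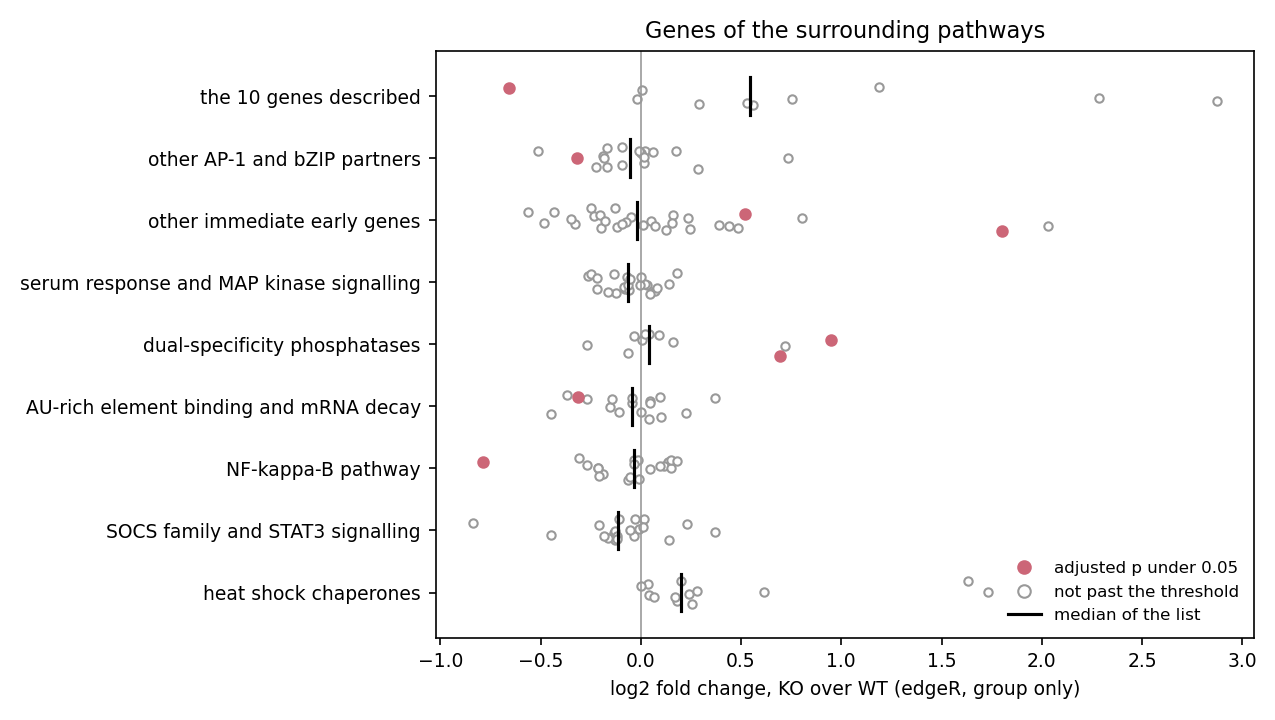
Log2 fold change of KO over WT (horizontal axis, edgeR on group alone) of every tested gene in the 8 pathway lists and of the 10 genes described, with each list's median as a line and genes at an adjusted p under 0.05 in colour. The medians lie between −0.11 and 0.20 for the 8 lists and at 0.54 for the 10 genes.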

How the data were processed

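RNA sequencing of 3 WT and 3 KO libraries was deposited by the authors as raw read counts per gene symbol, and the 5 summary rows of the counting tool were left out of all fits. Per the submitters' processing notes, TopHat2, HTSeq and GRCm38 were used; no version, annotation or strand setting is given in the sources read. In each library 50.4% to 51.9% of reads fell in no feature and 37.7% to 39.7% in genes. The Ctrl columns were taken as the WT titles of the same number.

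The fit used edgeR 4.0.16 under R 4.3.3: filterByExpr (minimum count 10, minimum total 15), TMM, robust glmQLFit and glmQLFTest on group, two-sided, with p-values adjusted by Benjamini-Hochberg over 13729 genes at 0.05. The SE is the size of the log2 fold change over the square root of F. Within-group SD is of log2 CPM with a prior count of 2. Lengths, positions and 3′ UTRs came from GENCODE M21 (GRCm38), matched by symbol for 88.2% of tested genes, and promoter windows from RefSeq. Alternatives were DESeq2 1.42.0, limma-voom 3.58.1, other filters and scalings, robust fitting off, the replicate block, and leaving out libraries. The fit was tested on simulated data. Intervals and read counts without molecular identifiers cover counting error only.

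Both groups carry the numbers 1 to 3 in their titles. Deviations from the group means of same-numbered libraries correlated at 0.58, 0.17 and 0.34 across genes, all over the limit of 0.1 for treating numbers as pairs. WT 2 with KO 3 (0.29) and WT 3 with KO 2 (0.22) were over it too, and both above WT 2 with KO 2. With both number 1 libraries apart, deviations from a mean of 3 make the other libraries move together. The limit therefore cannot show that numbers 2 and 3 are pairs, and blocked values assume that they are. The labels name no shared litter, batch or day. Blocked values are printed where they change the call of a gene whose fit is given.

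The members and lists were chosen with earlier results of these data known. Named genes are the 10 members, Rpl22l1 and up to 4 called genes of each pathway list, or the 2 of smallest p where none was called. Any other gene of these lists is marked as picked with its values in view. A gene that this rule selects is left out of the text.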

Additional observations from a re-analysis of the deposited data

How the results depend on the processing

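Against 628 genes called on group alone, 1037 were called without the count filter, 1222 by DESeq2, 2785 with the replicate block, 1707 by DESeq2 with the replicate block and 2881 with both number 1 libraries left out, which was chosen after seeing the data. Leaving out 1 library gave 109 (without WT 2) to 2177 (without KO 1). Members called went from 1 to 3 with the replicate block, 2 in DESeq2 with the block and 3 without the number 1 libraries, and ranged from 0 to 3 with 1 library left out. With 0 called, without WT 2, KO 2 or KO 3, 1, 1 and 2 members had an unadjusted p under 0.05 in edgeR. Pathway list genes called went from 7 to 16 in DESeq2, 33 with the replicate block, 22 in DESeq2 with the block and 33 without the number 1 libraries, and from 1 to 22 with 1 library left out. The cause of these moves was not tested.

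Direction turned in 3 members, none of them called. Junb ranged from −0.10 to 1.15 log2 units with 1 library left out. Jund was −0.0080 at a mean of at least 5 CPM, −0.029 with library size only, −0.029 in limma-voom, −0.018 with the replicate block, −0.017 in DESeq2 with the block, and −0.16 to 0.21 with 1 library left out. Nfkbia ranged from −0.16 to 0.12. Over the 159 alternatives of the 10 members, 136 kept direction and side of the threshold, 3 lost the call (all Socs3), 7 gained it and 13 turned direction. Of 206 for the other named genes 165 kept both, 22 lost the call, 19 gained it and 0 turned. Fosb was not tested at a mean of at least 5 CPM. The replicate block changed the call of no member besides Fosb and Zfp36. Scaling moved the median of all genes by under 0.1 log2 units.

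The number 1 values of Fos and Fosb rest on 4 to 9 reads and are imprecise. These libraries were not the shallowest: WT 1 and KO 1 had 21571810 and 25657313 reads in genes, and KO 3 had 13887672. Genes that overlap another gene on the opposite strand cannot be told apart from it without the strand setting. For the same-strand overlaps of Dusp1 the strand setting would not separate the reads.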

Other observations

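Few genes varied more within a group than Fos, and those that did were highest in the number 1 library of each group. The 5 genes that exceeded Fos in within-group SD were Thbs1, RP23-463F7.8, Parvb, Slc15a2 and Gpnmb, and Thbs1 was the first with an SD of 4.36 log2 units. Thbs1, an adhesive glycoprotein gene, had 740, 0 and 1 reads in WT 1, 2 and 3 and 570, 33 and 0 in KO 1, 2 and 3. Parvb, the gene of an integrin-linked adaptor, had 926, 8 and 3 reads in WT and 803, 186 and 8 in KO. Slc15a2 was high in WT 3 as well, with 3143, 107 and 1268 reads in WT 1, 2 and 3 and 594, 1 and 1 in KO 1, 2 and 3. Each of the 5 genes was highest in the number 1 library of both groups, whereas Fos had 5 and 6 reads there and 101 to 1130 in the other 4. Among the 20 genes of widest spread, Fosb and Sult2b1 (1, 45 and 46 reads in WT 1, 2 and 3 and 3, 50 and 31 in KO 1, 2 and 3) were low there as Fos was. The genes are named by the rank of their spread, after their values were seen.

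Fos lies on chromosome 12 with 14 other tested genes within 500 kb. Jdp2, 122 kb beyond the Fos gene on the same strand, was the 1 neighbour whose mean in the number 1 libraries differed from that in the other 4 by 2-fold or more, higher by 1.77 log2 units, against −6.37 log2 units for Fos. Rps6kl1, a gene of an S6 kinase-like protein, lay just under that limit at 0.997 log2 units, with KO 2 (99.2 CPM) beside the number 1 libraries (105 and 85.9 CPM). Such a difference was seen for 2.32% of all tested genes. Tmed10, the nearest tested gene on the other side, stayed between 146 and 174 CPM, and Batf, which lies 209 kb beyond Fos, differed by −0.02 log2 units.

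Socs1 and Cish, which encode relatives of Socs3 and restrain cytokine signals too, had 33.9 and 34.5 CPM (Socs1) and 13.8 and 20.6 CPM (Cish) in KO 2 and KO 3. In the WT libraries Socs1 had 48.1 to 56.6 CPM and Cish 27.5 to 52.7 CPM, and KO 1 was within or beside the WT values in both, with 48.1 and 29.3 CPM. Neither was called on group alone (adjusted p = 0.103 and 0.261 in edgeR), and Socs1 was called without the number 1 libraries (adjusted p = 6.16e-05) but not with the replicate block (adjusted p = 0.145). Both were chosen after their values were seen.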
